A study of Mus musculus with 10 samples.

Results

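The GATA and HAND transcription factors and their cofactors were examined as 9 genes, *Gata2*, *Gata3*, *Gata4*, *Gata5*, *Gata6*, *Hand1*, *Hand2*, *Zfpm1*, and *Zfpm2*, out of the 55426 genes in the expression table. They were chosen by name. The GATA and HAND genes belong to families whose DNA motifs the study reports in PRDM16 peaks, and *Zfpm1* and *Zfpm2* were added as cofactors. Each name matched 1 row of the table. PRDM16 is a zinc finger regulator of transcription. RNA-Seq was performed on the thoracic aorta of 3 control mice (Prdm16f/f, no Cre) and 3 Prdm16SMKO mice (Prdm16f/f, SMMHC-CreERT2), all on a C57BL/6J background. The floxed allele was thus shared by all 6 animals. The Cre is driven by smooth muscle myosin heavy chain (*Myh11*) and sits on the Y chromosome, and it deletes *Prdm16* in smooth muscle cells after tamoxifen, so other cells of the vessel wall keep the gene. Tamoxifen was given to young adults, and neither its use in the controls, the age and time of day at harvest, nor pooling of animals is given in the sources used here. ChIP-Seq was performed in primary vascular fibroblasts of wild-type genotype, which received a lentivirus with Flag-tagged PRDM16 or the empty vector over 48 hours and then puromycin at 2 μg/mL over 1 week. Each condition had 1 anti-Flag library, so no peak value has a replicate, and the peaks are of introduced PRDM16 in fibroblasts and not of the endogenous protein in smooth muscle.

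GATA proteins bind a short GATA-centred DNA word through paired zinc fingers. GATA2 and GATA3 are best known in blood, endothelium, and lymphocytes, and GATA4, GATA5, and GATA6 in heart, gut, and smooth muscle, where GATA6 is the usual family member of the adult vessel wall. HAND1 and HAND2 are basic helix-loop-helix factors of the heart and of neural crest derivatives, and they bind E-box DNA as dimers with the E proteins TCF3, TCF4, and TCF12. ZFPM1 and ZFPM2 (also called FOG-1 and FOG-2) do not act through their own DNA site but hold a zinc finger of a GATA protein, and recruit the CtBP and NuRD corepressors.

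The PRDM16 list held 11271 peaks, of which 13 lay in a member gene, and the DNA under 5 of those peaks is shown here because the peak results turn on it. In the lines that follow, capitals mark a GATA word (the word AGATAA, the word AGATAG, the word TGATAA, or the word TGATAG) or the HAND word CATCTG on either strand, and bases are from GRCm38 on the plus strand, the strand of each of these genes. The first line is the strongest member peak, in an intron of *Zfpm1* (chr8:122296418-122296717), and the second the *Zfpm1* promoter peak (chr8:122282593-122282892). The next pair are from *Gata2* peaks, 1 at the first of its 2 curated start sites (chr6:88193719-88193839) and 1 between the 2 start sites (chr6:88197120-88197419), in a peak centred 1305 bp before the second. The last gives the bases just before the *Zfpm2* start site, inside the longest member peak (chr15:40654922-40655041).
*Zfpm1* intron: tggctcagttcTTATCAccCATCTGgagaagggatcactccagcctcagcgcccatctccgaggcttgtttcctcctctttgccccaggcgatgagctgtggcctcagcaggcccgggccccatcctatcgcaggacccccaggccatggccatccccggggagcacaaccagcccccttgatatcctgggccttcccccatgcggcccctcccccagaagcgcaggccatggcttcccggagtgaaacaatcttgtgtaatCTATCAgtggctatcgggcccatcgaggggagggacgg
*Zfpm1* promoter: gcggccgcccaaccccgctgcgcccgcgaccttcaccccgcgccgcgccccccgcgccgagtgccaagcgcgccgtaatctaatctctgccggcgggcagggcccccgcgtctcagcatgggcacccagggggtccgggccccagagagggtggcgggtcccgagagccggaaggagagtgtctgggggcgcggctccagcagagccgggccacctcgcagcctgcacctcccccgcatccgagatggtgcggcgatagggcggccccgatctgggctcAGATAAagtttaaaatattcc
*Gata2* first start site: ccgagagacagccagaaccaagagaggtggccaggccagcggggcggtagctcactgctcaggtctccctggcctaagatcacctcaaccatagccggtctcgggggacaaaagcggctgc
*Gata2* between the start sites: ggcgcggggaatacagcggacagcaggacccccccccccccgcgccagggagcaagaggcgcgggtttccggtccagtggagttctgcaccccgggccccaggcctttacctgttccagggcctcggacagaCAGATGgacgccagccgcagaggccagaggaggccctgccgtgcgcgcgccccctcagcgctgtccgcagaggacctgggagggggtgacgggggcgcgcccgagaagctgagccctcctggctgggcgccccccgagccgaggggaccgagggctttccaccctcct
*Zfpm2* promoter: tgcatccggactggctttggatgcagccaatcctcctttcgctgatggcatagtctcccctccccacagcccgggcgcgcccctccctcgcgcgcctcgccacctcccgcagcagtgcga

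In the *Zfpm1* intron sequence, TTATCA (the reverse complement of TGATAA) stood 2 bases before CATCTG, and CTATCA (the reverse complement of TGATAG) followed 237 bases further on. The *Zfpm1* promoter sequence held 1 word, AGATAA, and the *Gata2* sequence between the start sites held 1 word, CAGATG (the reverse complement of CATCTG). The first *Gata2* sequence (121 bases) and the *Zfpm2* sequence (120 bases) held none. They are shorter because 300 bases were printed only for peaks with a word. Neither of these peaks held a word within 150 bp of its summit. The *Gata6* peaks are described below without their bases. The GC content of the 5 printed stretches was 63.0%, 72.0%, 63.6%, 73.7%, and 68.3%.

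In the aortas, *Gata6* was by far the most abundant member, and none of the 9 genes passed the test between Prdm16SMKO and control mice. Of them, 5, *Gata6*, *Gata2*, *Hand2*, *Zfpm1*, and *Zfpm2*, reached the mean of 0.5 TPM (abundance per transcript length, scaled to the same total in every aorta) over the 6 aortas that the test required. The count of members called was 0 of 5, with limma on log2(TPM + 0.1) and an adjusted *P* under 0.05, beside 168 of 15668 genes (1.07%) over the whole table, and 0 of the 5 reached an unadjusted *P* under 0.05. The groups did not separate without overlap for any of the 5, while they did for 2982 of the 15668 genes (19.0%). Of the 5, 2 had a log2 fold change above 0 and 3 below, with a median of −0.07, beside a median of −0.12 over all genes tested. Rescaling each aorta by its median ratio brought that overall median to 0.00 and turned the fold changes of *Gata6* and *Hand2* to 0.06 and 0.02, still with 0 of 5 called by limma.

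RNA of the targeted gene, *Prdm16*, was lower in the Prdm16SMKO aortas but was not called in the main comparison. The part of the deletion in this difference was not tested. *Prdm16* stood at 56.1, 47.6, and 40.3 TPM in the control aortas and at 23.3, 33.3, and 23.4 TPM in the Prdm16SMKO aortas. The 3 Prdm16SMKO values lay below the 3 control values, and the fold change was −0.85 ± 0.18 on the log2 scale (SE, n = 3 per group), with an adjusted *P* of 0.0725 from limma that ran from 0.0239 to 0.230 over the alternative settings. The summed TPM of 6 smooth muscle markers was 20649 to 24074 in controls and 13730 to 17733 in Prdm16SMKO aortas, with a lower mean for each of the 6 and none called, and fewer smooth muscle cells cannot be told apart from less RNA per cell. The summed TPM of 4 mesothelial markers was 0.27 to 2.99 in controls and 3.74 to 5.01 in Prdm16SMKO aortas. The sum over 5 cardiac muscle markers was 27.1 to 47.9 in controls and 496 to 514 in Prdm16SMKO aortas, carried by *Tnnt2*, the only 1 of them called. Only 2 of the 5 had a higher mean in Prdm16SMKO aortas than in controls, *Tnnt2* (496 against 24.1 TPM) and *Nppa* (0.42 against 0.297 TPM). The mean was lower for *Actc1* (1.40 against 4.02 TPM), *Tnni3* (5.14 against 6.73 TPM), and *Myh6* (2.93 against 4.24 TPM). Markers of endothelium, fibroblasts, mast cells, T cells, brown adipocytes, erythroid cells, and macrophages overlapped between the groups. The part of any of these cells in the values below was not tested.

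*Gata6*, the GATA factor of differentiated vascular smooth muscle, was measured at 60.8, 40.9, and 48.1 TPM in controls and at 48.1, 54.3, and 39.8 TPM in Prdm16SMKO aortas. The groups overlapped almost completely, and the highest and the lowest aorta differed by more within the controls than the group means did. Means were 49.9 ± 10.1 and 47.4 ± 7.30 TPM (SD, n = 3), and the log2 fold change was −0.07 ± 0.18 (SE), with a limma adjusted *P* of 0.914. The 95% interval ran from −0.46 to 0.33, that is from 0.725-fold to 1.26-fold. *Gata6* was above 87.5% of the genes tested in mean TPM of the control aortas.

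*Gata6* also made up most of the GATA RNA. In controls it was 92.5%, 92.4%, and 87.4% of the summed TPM of *Gata1* to *Gata6*, and in Prdm16SMKO aortas 84.3%, 94.7%, and 85.3%. The ratio of *Gata6* to *Gata2* ranged from 6.31 to 23.5, with both ends in the Prdm16SMKO group, and the control range lay inside that of the Prdm16SMKO aortas.

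*Gata2*, the GATA factor of endothelium and blood progenitors, was measured at 3.78, 2.92, and 6.29 TPM in controls and at 7.62, 2.31, and 6.03 TPM in Prdm16SMKO aortas. The highest and the lowest values both belonged to Prdm16SMKO aortas. The log2 fold change was 0.20 ± 0.44 (SE), with a limma adjusted *P* of 0.888, and it went from −0.13 without Prdm16SMKO replicate 1 to 0.71 without Prdm16SMKO replicate 2. Its 95% interval, from −0.79 to 1.19, was the widest of the 5 and left room for a level from 0.579-fold to 2.29-fold. The summed TPM of 6 endothelial markers was 94.4, 105, and 117 in controls and 146, 64.6, and 101 in Prdm16SMKO aortas, and it was highest and lowest in the same aortas as *Gata2*. Over the 6 aortas, *Gata2* and this sum had a Pearson *r* of 0.84 and a Spearman rho of 0.83, given as a description and picked from the highest such values.

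*Hand2*, a HAND factor of the heart and sympathetic lineage, was measured at 7.11, 6.13, and 7.35 TPM in controls and at 6.81, 5.72, and 6.61 TPM in Prdm16SMKO aortas. The 6 values lay close together, and the groups overlapped. The log2 fold change was −0.10 ± 0.16 (SE) with a 95% interval from −0.47 to 0.27, and the limma adjusted *P* was 0.838. *Hand2os1*, transcribed from the opposite strand and overlapping *Hand2*, stood at 2.93 to 5.02 TPM in controls and 2.89 to 5.71 TPM in Prdm16SMKO aortas, and since the counting is not stated to use strand, reads from the overlap cannot be told apart.

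The cofactor genes were measured at levels like that of *Hand2*. *Zfpm2* (FOG-2), the cofactor paired with GATA4 and GATA6 in heart, was at 10.3, 7.52, and 7.59 TPM in controls and at 7.79, 7.64, and 6.17 TPM in Prdm16SMKO aortas. *Zfpm1* (FOG-1), the cofactor of GATA1 in blood, was at 6.64, 5.24, and 6.61 TPM in controls and at 6.48, 7.28, and 6.03 TPM in Prdm16SMKO aortas. Both genes overlapped between the groups. The log2 fold change was −0.22 ± 0.19 (SE, 95% interval −0.64 to 0.20) for *Zfpm2* and 0.10 ± 0.17 (SE, 95% interval −0.29 to 0.49) for *Zfpm1*, with limma adjusted *P* values of 0.654 and 0.853. The ratio of *Zfpm2* to *Zfpm1* was 1.15 to 1.55 in controls and 1.02 to 1.202 in Prdm16SMKO aortas, so *Zfpm2* was the higher of the pair in each of the 6 aortas.

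The other 4 members were near the lower end of the measured range and were not tested in the main comparison. *Gata3*, a factor of T cells and of sympathetic neurons, was at 0.41, 0.28, and 0.40 TPM in controls and at 0.87, 0.31, and 0.54 TPM in Prdm16SMKO aortas, and its mean of 0.468 TPM fell just short of the minimum. *Gata4*, the cardiac GATA factor, was at 0.63, 0.15, and 0.24 TPM in controls and at 0.16, 0.07, and 0.25 TPM in Prdm16SMKO aortas. *Gata5*, expressed in endocardium and gut, was between 0 and 0.13 TPM in controls and between 0.06 and 0.20 TPM in Prdm16SMKO aortas. *Hand1* was listed at 0 in 4 aortas and at 0.06 TPM in 1 aorta of each group. All 4 overlapped between the groups, and with no minimum level, when 26228 genes were tested, 0 of the 9 members were called by limma and 0 reached an unadjusted *P* under 0.05.

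By mean TPM the order was *Gata6*, *Zfpm2*, *Hand2*, *Zfpm1*, *Gata2*, *Gata3*, *Gata4*, *Gata5*, and *Hand1*. The lowest *Gata6* value exceeded the highest value of every other member. The ranges of *Zfpm2*, *Hand2*, *Zfpm1*, and *Gata2* over the aortas ran into each other, from 2.31 to 10.3 TPM, although *Zfpm2* was above *Zfpm1* within every aorta. Neighbours in the order also had overlapping ranges among *Gata3*, *Gata4*, *Gata5*, and *Hand1*.

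**Figure D1:**
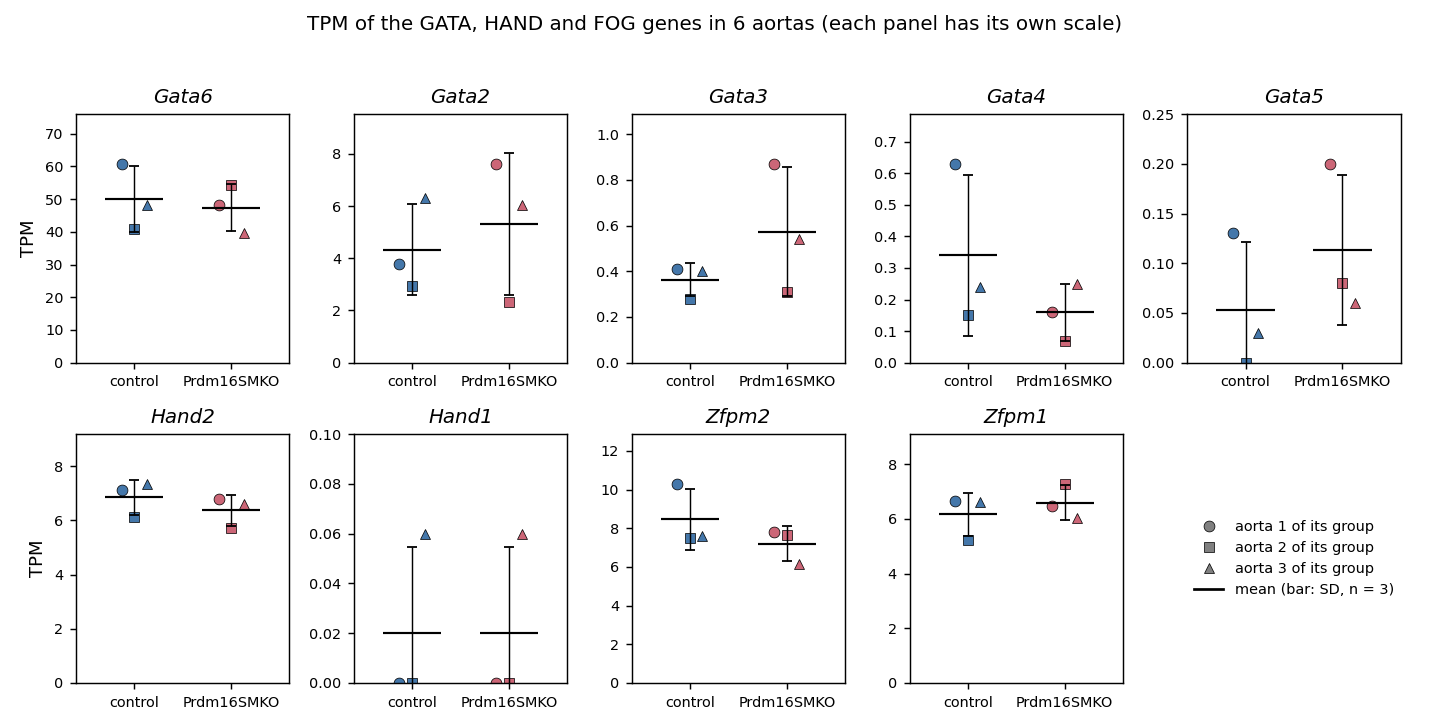
TPM of the 9 members in each of 3 control (blue) and 3 Prdm16SMKO (red) aortas, 1 point per aorta, with the mean as a line and the SD as a bar, each panel on its own axis from 0. The 2 groups overlap in every panel, and *Gata6* lies between 39.8 and 60.8 TPM while *Gata3*, *Gata4*, *Gata5*, and *Hand1* stay below 0.9 TPM.

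**Figure D2:**
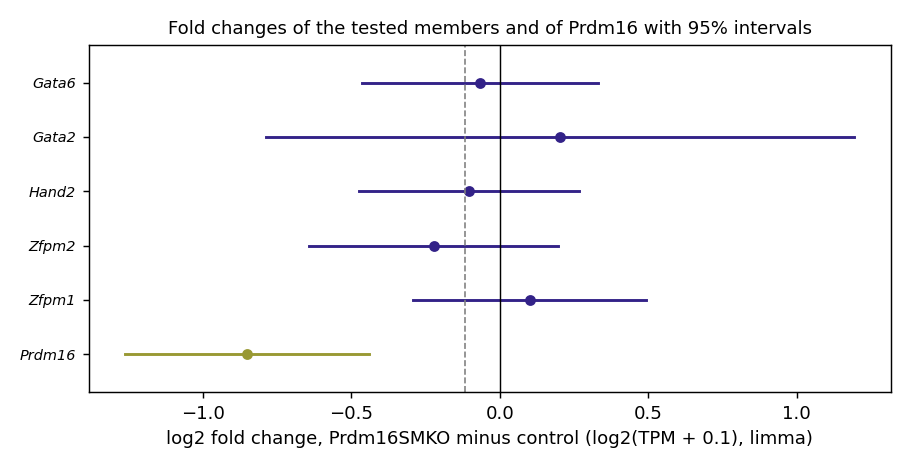
Log2 fold change of the 5 tested members and of *Prdm16* (Prdm16SMKO minus control, log2(TPM + 0.1), n = 3 per group), as a point with its 95% limma interval, with a solid line at 0 and a dashed line at the median of all genes tested, −0.12. The 5 member intervals include 0, and that of *Gata2* is the widest.

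Over the 6 aortas, the 36 pairs of members had Pearson *r* values from −0.59 (*Hand1* and *Zfpm2*) to 0.85 on log2(TPM + 0.1), with a median of 0.25. Among the highest, *Gata6* and *Zfpm2* had an *r* of 0.85, *Gata6* and *Zfpm1* 0.75, and *Gata2* and *Gata3* 0.84, while *Gata2* and *Gata6* had −0.28. *Gata6* was high where the summed brown adipocyte markers were low (*r* = −0.96, rho = −0.89, n = 6 aortas), the lowest of 99 correlations between a member and a marker list, which ran up to 0.86, and one picked for its size. Its *r* with the T cell markers was −0.79, with the erythroid markers 0.62, and with the smooth muscle markers 0.55. That sum, over *Ucp1*, *Cidea*, *Adipoq*, and *Elovl3*, was 89.3 to 463 TPM in controls and 104 to 379 TPM in Prdm16SMKO aortas, and its part in the *Gata6* values was not tested. The genes most like *Gata6* were *Atp10d* (*r* = 0.997), *Ranbp3* (0.995), *Ywhah* (0.993), *Cnot8* (0.991), and *Txndc16* (0.991), of 13684 genes with a mean of at least 1 TPM. Among those 13684 genes, 528 had an *r* of at least 0.9 over the 6 aortas, so such a value was not particular to the genes named.

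Partner genes of the GATA and HAND factors were described from a list of 34, covering other GATA-type zinc finger proteins, basic helix-loop-helix relatives, E proteins, ID inhibitors, the LMO2 complex, and the CtBP and NuRD corepressors. Of the list 32 were tested and 0 were called by limma in either direction, with 2 (6.25%) at an unadjusted *P* under 0.05, beside 1986 of all 15668 genes tested (12.7%). The log2 fold change was above 0 for 9 and below 0 for 23, and the median of −0.12 was the same as that of all genes tested. The groups did not overlap for 4 of the 32 (12.5%), beside 19.0% of all genes tested. These were *Id3* among higher values and *Tal1*, *Mta3*, and *Hdac2* among lower ones, named after their values were seen.

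The most abundant partner genes were 3 ID inhibitors, which hold E proteins away from DNA, and 3 corepressor subunits. *Id3* was at 79.5, 73.4, and 71.1 TPM in controls and at 117, 123, and 86.2 TPM in Prdm16SMKO aortas. All 3 Prdm16SMKO values were above the controls, and the log2 fold change was 0.53 ± 0.15 (SE), with a limma adjusted *P* of 0.170 that went from 0.0218 to 0.466 over the alternative settings. *Id2* (107 to 165 TPM in controls, 108 to 130 TPM in Prdm16SMKO aortas) and *Id1* (67.3 to 94.96 and 75.1 to 117 TPM) overlapped between the groups. So did *Chd4*, the NuRD remodeler (87.1 to 113 and 80.1 to 104 TPM), *Rbbp7*, a histone-binding NuRD subunit (83.2 to 94.2 and 78.1 to 90.8 TPM), and *Ctbp1* (83.6 to 93.3 and 67.9 to 90.4 TPM). These 3 subunits, picked for their abundance, were measured at several times the level of the FOG genes themselves, in both groups. Other listed subunits were lower, among them *Ctbp2* (25.1 TPM), *Mta3* (24.0 TPM), and *Gatad2a* (20.2 TPM) in the mean of the 6 aortas. The FOG genes had means of 7.83 TPM (*Zfpm2*) and 6.38 TPM (*Zfpm1*). Of the E proteins, *Tcf4* stood at 33.5 TPM, *Tcf12* at 32.5 TPM, and *Tcf3* at 16.7 TPM in the mean of the 6 aortas, none of them called.

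A list of 15 genes widely known to respond to GATA or HAND factors gave 12 tested genes, of which 0 were called by limma. Of the 12, 4 (33.3%) reached an unadjusted *P* under 0.05, beside 12.7% of all genes tested, and 4 did not overlap between the groups, beside 19.0%. The log2 fold change was above 0 for 3 and below 0 for 9, with a median of −0.21 beside the −0.12 of all genes tested. *Sema3c*, a guidance factor of the cardiac outflow tract, was at 77.6, 72.1, and 67.9 TPM in controls and at 60.6, 67.2, and 49.8 TPM in Prdm16SMKO aortas. The groups did not overlap, and the log2 fold change was −0.30 ± 0.14 (SE), with a limma adjusted *P* of 0.405. *Mecom*, a relative of *Prdm16* in the PRDM family, was at 18.6, 12.8, and 17.1 TPM in controls and at 25.7, 23.4, and 18.6 TPM in Prdm16SMKO aortas, where the lowest Prdm16SMKO aorta came just under the highest control. Its log2 fold change was 0.48 ± 0.18 (SE), with a limma adjusted *P* of 0.318. *Bmp4*, *Dab2*, *Vcam1*, and *Tnni3*, cardiac troponin I, overlapped between the groups, *Tnni3* with 5.35 to 8.52 TPM in controls and 3.17 to 6.40 TPM in Prdm16SMKO aortas, and *Bmp4* had the widest spread, from 6.92 to 68.1 TPM among the Prdm16SMKO aortas.

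Other target genes whose groups did not overlap were *Edn1*, *Actc1*, and *Kit*, singled out after their values were seen. *Edn1*, the gene of the vasoconstrictor endothelin-1, was at 8.09, 5.45, and 5.45 TPM in controls and at 2.69, 1.67, and 0.85 TPM in Prdm16SMKO aortas. Every Prdm16SMKO value was below every control, and the log2 fold change was −1.92 ± 0.38 (SE), with a limma adjusted *P* of 0.0567 that ran from 0.0146 to 0.208 over the alternative settings. *Edn1* is made mainly by endothelium. The endothelial marker sums given above overlapped between the groups, and the part of endothelium in the *Edn1* values was not tested. *Actc1*, cardiac actin, was at 2.82 to 6.17 TPM in controls and 0.74 to 1.82 TPM in Prdm16SMKO aortas, and *Kit*, a receptor of mast cells and progenitors, at 1.33 to 1.95 and 2.38 to 3.28 TPM, with limma adjusted *P* values of 0.168 and 0.230. The mast cell marker sum was 2.67 to 4.63 TPM in controls and 3.08 to 8.12 TPM in Prdm16SMKO aortas, and its part in the *Kit* values was not tested.

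**Figure D3:**
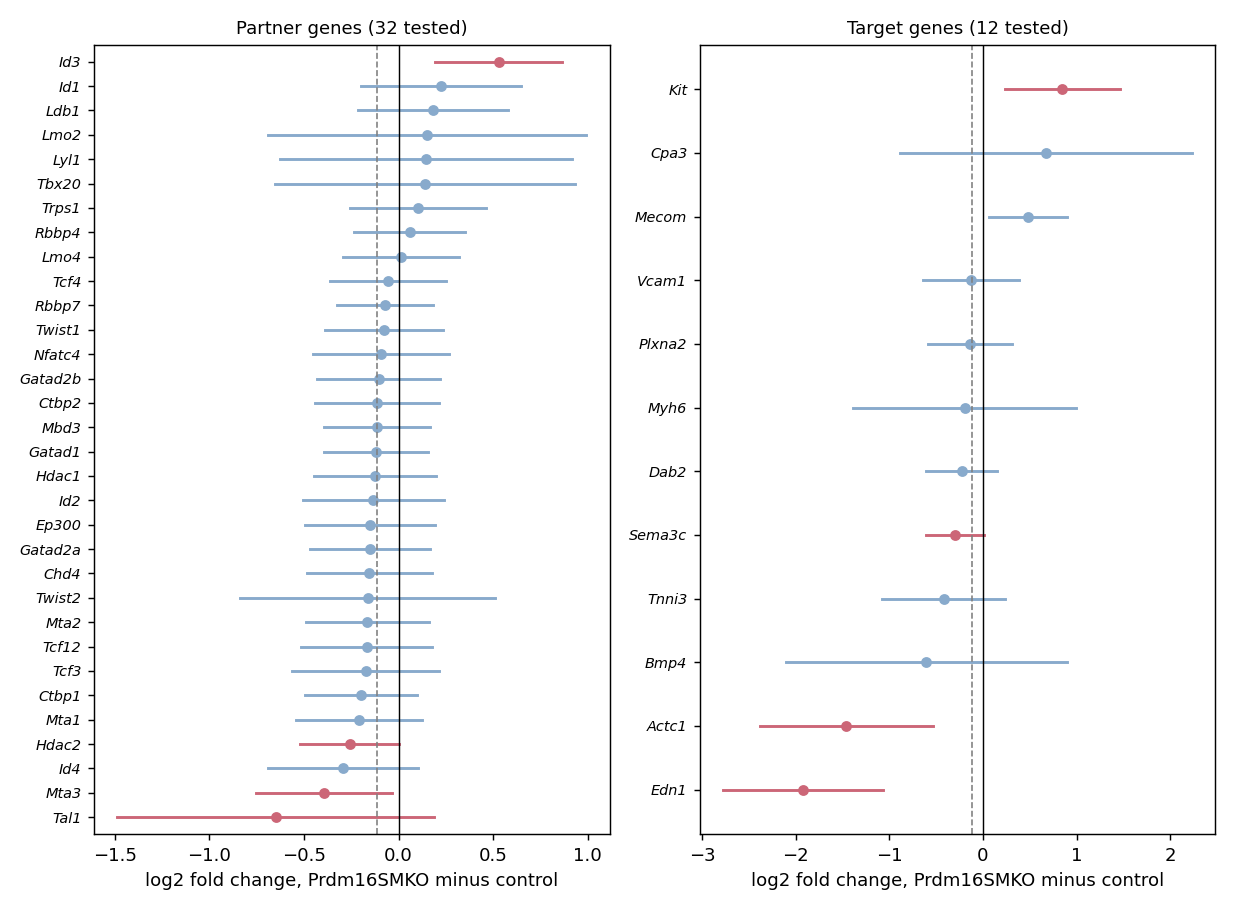
Log2 fold changes (Prdm16SMKO minus control, n = 3 per group) of the 32 tested partner genes (left) and the 12 tested target genes (right), each as a point with its 95% limma interval, red where the groups do not overlap and blue where they do, with a dashed line at the median of all genes tested. Most partner genes lie near the dashed line, and *Edn1* and *Actc1* lie farthest below 0.

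PRDM16 peaks in the fibroblasts were found at the 5 members that were above 0.5 TPM in the aorta and at none of the other 4. A promoter peak, meaning one with its centre within 2 kb of a curated RefSeq start site, was present at *Gata2*, *Gata6*, *Hand2*, *Zfpm1*, and *Zfpm2*, that is 5 of 9, and at 0 of 9 when the window ran from 1 kb before to 100 bp after the start site, since nearly all of these peaks are centred further into the gene. Over all genes it was present for 6818 of 26180 (26.0%). Genes with a mean of at least 0.5 TPM in the aorta had one in 5690 of 13142 cases (43.3%), and genes below 0.5 TPM in 905 of 12021 (7.53%), so that the expressed members are to be read against the former share and the low ones against the latter. All of the 13 peaks assigned to a member lay inside its gene or across its start site, 8 of them (61.5%) in a promoter, 4 in an intron and 1 in an exon, and the promoter share of all peaks was 61.1%. The list from the vector library held 67 peaks, 0 of them within 100 kb of a member.

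*Gata2* had 5 peaks, the most of the members. In the whole genome 110 genes (0.420%) held 5 or more peaks in the gene body. The first peak, at chr6:88193587-88194865, spanned the upstream start site, and its fold enrichment at the summit of 7.38 was above 85.5% of all peaks. The second, at chr6:88197031-88197687, had its centre 1305 bp before the downstream start site and a fold enrichment of 4.57. The next pair, at chr6:88198675-88198904 and chr6:88199397-88200792, lay just after that start site with 5.98 and 5.80. The last, at chr6:88204315-88204628, was in an intron with 4.96, so both start sites of the gene were flanked and the enrichment was highest at the first.

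*Zfpm1* had 4 peaks, and the strongest was not at the promoter. The peak at chr8:122295916-122296968, 14301 bp inside the gene, had a fold enrichment of 10.2, above 97.0% of all peaks, and it carried the neighbouring GATA and HAND words printed above. The promoter peak, at chr8:122282676-122282940 with its centre 667 bp after the start site, had 6.33. The peaks at chr8:122283592-122284825 and chr8:122294826-122295061 had 2.97 and 4.03, and the former, with a −log10 q of 1.80, was weaker than the q of 0.01 named in the study's methods. In all, 207 genes (0.791%) held 4 or more peaks in the gene body.

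*Zfpm2* had 1 peak in a gene of 450 kb. The peak, at chr15:40654315-40656317, spanned the start site over 2003 bp, was longer than 99.5% of all peaks, and had a fold enrichment of 8.79, above 93.8% of them. *Hand2* had 1 short peak at chr8:57321212-57321496, 371 bp after its start site, with 5.27, close to the median of 5.27 of all peaks. Its summit was in the 5′ UTR, where the bases at chr8:57321357-57321381 read gggaaggggcaggaagggggagggt, and the summit of the *Zfpm2* peak was likewise in the 5′ UTR (chr15:40655149-40655173), reading cccgggtccccctgcgctctctcct.

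*Gata6* had 2 peaks just inside the gene. One lay at chr18:11052631-11053117, 364 bp after the start site, with a fold enrichment of 5.27, and the other at chr18:11053807-11055387, 2087 bp after it, with 6.05 and a length of 1581 bp, above 98.5% of peaks. The start site of the divergent noncoding gene *Gata6os* (*1010001N08Rik* in the expression table) was nearer still, at 307 bp from the centre of the first peak, so the peak cannot be given to 1 of the 2 genes. *1010001N08Rik* was at 9.84, 4.72, and 4.62 TPM in controls and at 7.96, 8.74, and 4.23 TPM in Prdm16SMKO aortas, overlapping between the groups, with a limma adjusted *P* of 0.901.

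The members below 0.5 TPM had no peak in the gene or at the promoter. The nearest peak to *Hand1* was 29.9 kb from its start site, close to *Sap30l*, that to *Gata4* 63.5 kb, close to *Gm46458*, and that to *Gata5* 82.9 kb, close to *Rps21*. For *Gata3* the nearest was 1586 kb away, near *Pfkfb3*. None of the 4 gained a promoter peak at a window of 5 kb.

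**Figure D4:**
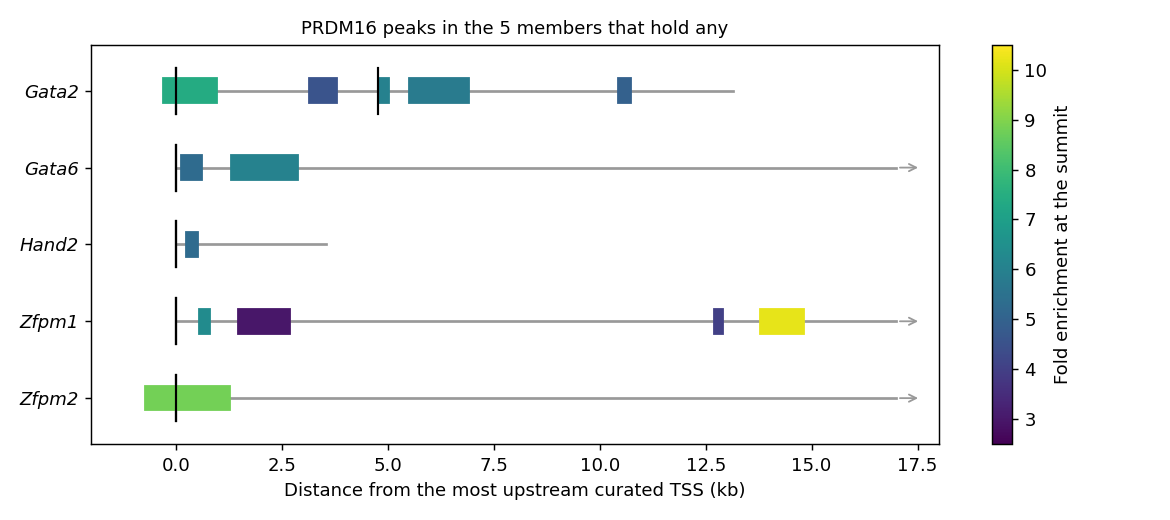
PRDM16 peaks (boxes, coloured by fold enrichment at the summit) in the 5 members that held any, drawn by distance in kb from the most upstream curated start site in the direction of transcription, with start sites as black ticks and the gene as a grey line that ends in an arrow where the gene runs on. The brightest box is the *Zfpm1* peak 14301 bp into the gene, and the longest is the 2003-bp peak across the *Zfpm2* start site.

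GATA and HAND words were not especially frequent under the member peaks. Within 150 bp on either side of the summit, 3 of 13 member peaks held a GATA word, 2 held the HAND word, and 4 held either, and the shares over the 11258 peaks on assembled chromosomes were 18.5%, 17.5%, and 31.6%. Words of 1 family can overlap each other, and none did in these peaks. The median GC content of the windows was 65.1% for the member peaks and 63.1% for all peaks. The first *Gata6* peak stood out by its GATA words, with 5 in the window, at −34, −19, −8, 52, and 95 bases from the summit and all read on the minus strand. Of all peaks 27 (0.240%) had 5 or more, up to 43 in a single peak. A GATA word together with a HAND word, as in the *Zfpm1* intron peak, was found in 494 peaks (4.39%). A word in a window is a description of the letters there and was not tested for binding of a GATA or HAND protein.

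For the partner genes, 25 of 34 had a promoter peak, among them *Id1*, *Id3*, *Chd4*, and *Ctbp1* but not *Id2* or *Rbbp7*, beside the 43.3% of genes at 0.5 TPM or more. Of the 15 target genes 4 had one, namely *Plxna2*, *Dab2*, *Fgf10*, and *Mecom*. *Edn1* had 1 peak in the gene body outside the promoter window, *Actc1* and *Kit* had none. Of the 5 members, 25 partner genes, and 4 target genes with a promoter peak in fibroblasts, 0 were called by limma in the Prdm16SMKO aorta. Over all genes tested the share called was 1.07%, and *Fgf10* was not tested. An unadjusted limma *P* under 0.05 was reached by 2 of these partner genes, *Id3* and *Mta3*, and by the target gene *Mecom*, beside 12.7% of all genes tested. The paper lists *Id3* and *Mecom* as differentially expressed, higher in Prdm16SMKO aortas, with PRDM16 peaks in their promoters. The absence of calls by limma here therefore does not show that no gene with a promoter peak changed. *Prdm16* itself was not called in the main comparison.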

How the data were processed

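The samples were grouped by their titles and genotype labels into 3 control and 3 Prdm16SMKO aortas, and the members and lists were chosen with earlier results of these data known. The authors deposited TPM per aorta, from poly(A)-selected libraries, as a normalized unit, so the depth of each aorta is not known from them and no count test was used. For ChIP-Seq the authors deposited MACS2 peaks with the fold enrichment as a ratio, −log10 p, −log10 q, and the summit offset. Reads were mapped to GRCm38 with bowtie2, per the study's methods, and the library used as MACS2 control is not given in the sources used here. The submitters' processing notes name STAR 2.7.8a, RSEM 1.3.3, Bowtie2 2.3.4.1, and MACS2. No per-sample column was left unused, and the IgG libraries were not analysed here.

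TPM were tested with limma 3.58.1 in R 4.3.3 (lmFit and trended eBayes) on log2(TPM + 0.1), 2-sided, over the 15668 genes with a mean of at least 0.5 TPM, with Benjamini-Hochberg adjustment at 0.05. A fold change on this scale understates that of low genes. The *P* values set the group difference against the spread between 3 aortas a group, moderated over all genes tested. An exact permutation test of 3 against 3 cannot go below 0.1. The procedure was tested on simulated data. Named genes are the 9 members, *Prdm16*, called genes and the 6 most abundant of the partner and target lists, the 5 genes most correlated with the most abundant member, and markers by list. Genes outside this rule were named after their values were seen. A peak was assigned to a member when its centre lay in the gene, or within 100 kb with the member's start site as the nearest. Start sites, exons, and bases came from RefSeq GRCm38.p6. The words were counted within 150 bp on either side of the summit. Marker levels are summed TPM. One marker list is not reported here. Python 3.11.15, pandas 2.3.3, scipy 1.17.1, and pysam 0.24.0 were used. Alternatives were other pseudocounts, filters, scalings, eBayes without a trend, a replicate block, leaving out each aorta, and other promoter windows, q thresholds, and word windows, and start sites from GENCODE M21 were added after the data were seen.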

Additional observations from a re-analysis of the deposited data

How the results depend on the processing

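No member was called under any of the 14 alternative settings of the expression test, and *Zfpm2* kept its direction in each of them. The *Gata6* log2 fold change was 0.055 after median-ratio rescaling and 0.085 after quantile normalization, and −0.202 to 0.084 when 1 aorta was left out (0.084 without control replicate 1, 0.053 without Prdm16SMKO replicate 3). With 1 aorta left out it was −0.133 to 0.707 for *Gata2* (−0.038 without control replicate 2, −0.133 without Prdm16SMKO replicate 1, 0.707 without Prdm16SMKO replicate 2) and −0.01 to 0.162 for *Zfpm1* (−0.01 without control replicate 2), and for *Hand2* it was 0.017 after median-ratio rescaling. These 2 scalings moved the median of all genes from −0.12 to 0.00 and −0.01. The number of genes called, 168, was 413 with median-ratio rescaling, 392 with quantile normalization, 110 without a filter, 48 without a trend, and 91 to 141 with 1 aorta left out. *Id3*, a partner gene, was called (1 in place of 0) with median-ratio rescaling, with quantile normalization, and without Prdm16SMKO replicate 3 (0 to 1 over the left-out aortas). *Edn1*, a target gene, was called (1 in place of 0) with a mean of at least 1 TPM, with the replicate block, and without Prdm16SMKO replicate 1 (0 to 1). *Prdm16* was called with median-ratio rescaling, with quantile normalization, and without Prdm16SMKO replicate 2. The replicate block gave 184 genes called and 0 members. Deviations from the group means of aortas of the same number had *r* values of −0.02, −0.07, and −0.01 over the genes tested. Whether such aortas shared a litter or a batch was not tested, and their titles give only the number. The cause of these shifts was not tested.

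For the peaks, a promoter that ends 100 bp after the start site and begins 1 kb before it left 0 members (of 2388 genes with a peak) and 15.4% of member peaks in a promoter of any gene, since the centres of the members' promoter peaks lie 125 to 1430 bp after the start site, or in 1 case 1305 bp before it. At a q of at most 1e-05 the 5 members kept their promoter peak while the genes with one fell to 4432. With 100 bp on either side of the summit, 2 member peaks held a GATA or HAND word in place of 4. The other windows, the summit in place of the centre, and GENCODE start sites left 5 members. The files give no depth per library, and the labels only an average per assay.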
